A study of Homo sapiens with 12 samples.

Results

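Angiomotin (AMOT), myotrophin (MTPN), MARCKS, profilin 1 (PFN1), cofilin 1 (CFL1) and alpha-tubulin 1B (TUBA1B) are mRNAs of the cytoskeleton and its actin regulators, and all 6 were found crosslinked to the translation initiation factor eIF3 within their 5′ UTRs. They were chosen by name from the 479 genes of the authors' table of crosslinked sites, with earlier results on the number of sites, their reads, the subunits that list them and their T-to-C conversions already known. Those values are therefore described and not tested. The cells were 293T, a transformed human embryonic kidney line, and all groups shared the same treatment: 14 h with 100 µM 4-thiouridine, a uridine analog, and ultraviolet crosslinking at 0.15 J per square cm. An antibody against eIF3b was used for every library, after which RNA was trimmed with RNase T1 and complexes were cut from a denaturing gel. The 4 groups are the subunits eIF3a, eIF3b, eIF3d and eIF3g with 3 replicates each, 12 libraries in all, and no untreated or control library is among them. The labels do not say whether replicates were separate cultures. The table holds 1 value per site and subunit, pooled by the authors, so none of the values can be given with an error between libraries.

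The complex eIF3 recruits the small ribosomal subunit to mRNA at the start of translation, and the 5′ UTR is the stretch that this subunit scans before it reaches the start codon. A crosslinked 4-thiouridine is read as C in place of T, which marks the base in contact with protein. Actin filaments grow from monomers carried by profilin, are severed by cofilin and are closed at their fast-growing end by capping protein, which myotrophin binds and inhibits. MARCKS is a substrate of protein kinase C that links actin filaments to membrane phosphoinositides. Angiomotin is a junctional scaffold that binds actin filaments and the Hippo effector YAP, and alpha-tubulin is a subunit of microtubules.

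A cluster is a site called in 1 subunit, and clusters of different subunits that overlapped by at least 1 nt on the same strand were joined into a locus. The 6 genes held 46 clusters at 15 loci, with 2161 reads, of 1477 clusters at 558 loci in the whole table. All 46 clusters were annotated as 5′ UTR, as were 1001 of the 1477 clusters of the whole table. By gene, 69.1% of all genes of the table had any cluster with that annotation. The 6 genes were chosen with their 5′ UTR loci already known. The reads in clusters over all genes came to 15132 for eIF3a, 19187 for eIF3b, 24150 for eIF3d and 62405 for eIF3g. Library depth is unknown, so read counts cannot be set against each other between subunits as amounts of RNA. No cluster of the table had fewer than 8 reads, so a gene or locus that is not listed for a subunit may still have had reads. Expression was not analysed here, so the level of each mRNA is not separated from its crosslinking, and the label of the cells was not checked against marker genes.

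AMOT, MTPN, MARCKS and TUBA1B were listed for all 4 subunits. PFN1 was listed for eIF3b, eIF3d and eIF3g, and CFL1 for eIF3a, eIF3b and eIF3d. That is 4 of 6 genes in all 4 lists, beside 33.6% of the genes of the table. By locus, all 4 lists held 7 of the 15, 3 lists held 4, a pair of lists held 2 and a single list held 2, whereas 31.9% of the 376 loci with a 5′ UTR cluster over all genes were listed for all 4.

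Summed over all lists, the genes fell into a high and a low set. AMOT had 683 reads, MTPN 673 and MARCKS 595, which placed them 22nd, 25th and 30th among the 479 genes. PFN1 had 86 reads, TUBA1B 82 and CFL1 42, at places 163, 172 and 287. In the plot of reads by locus, a single locus held most reads of each gene of the high set: AMOT locus 2 had 472 of 683, MTPN locus 3 had 456 of 673 and MARCKS locus 3 had 541 of 595.

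**Figure D1:**
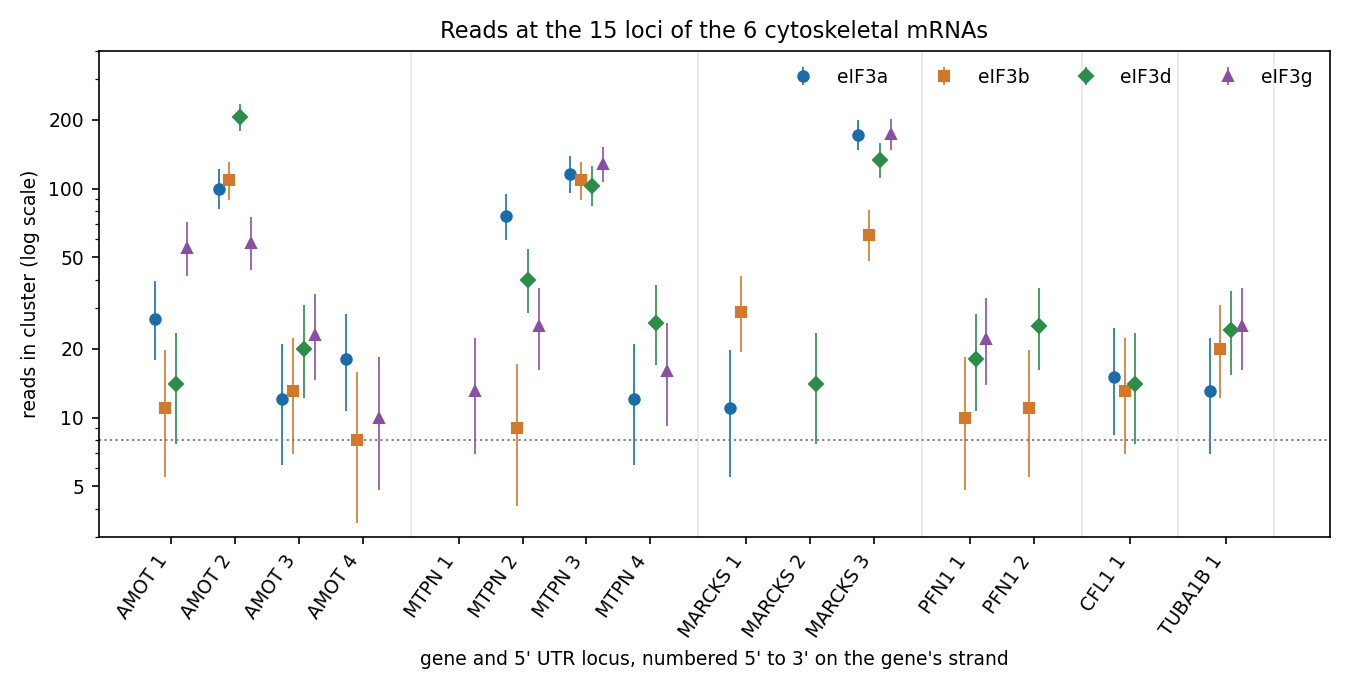
Reads in each cluster (vertical axis, log scale) at the 15 loci of the 6 genes, numbered 5′ to 3′ on the gene's strand, for eIF3a, eIF3b, eIF3d and eIF3g. Points are the authors' pooled counts, bars are exact 95% Poisson intervals that cover counting error only, the dotted line marks the table's lowest count of 8, and a missing point means not listed. AMOT locus 2, MTPN locus 3 and MARCKS locus 3 are the 3 loci with 58 or more reads in every subunit.

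AMOT had 4 loci in 2 groups that lay 24835 nt apart in the genome (chromosome X, minus strand, hg19). Loci are numbered from 5′ to 3′, and positions are as printed in the authors' table, which does not say whether they count from 0 or 1. Locus 1 spanned 112083992 to 112084033 and locus 2 spanned 112083846 to 112083940, 52 nt downstream. Locus 3 spanned 112058990 to 112059011 and locus 4 spanned 112058862 to 112058896, 94 nt downstream of locus 3. Both groups carried the annotation 5′ UTR.

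The upstream AMOT group held most of the gene's reads in every subunit. Locus 2 was the strongest, with 100 reads for eIF3a, 109 for eIF3b, 205 for eIF3d and 58 for eIF3g. Locus 1 had 27 reads for eIF3a, 11 for eIF3b, 14 for eIF3d and 55 for eIF3g, so that in eIF3g the loci of this group were almost even. Together, loci 1 and 2 held 80.9% of AMOT reads for eIF3a (95% exact binomial interval 73.9 to 86.7), 85.1% for eIF3b (78.1 to 90.5), 91.6% for eIF3d (87.4 to 94.8) and 77.4% for eIF3g (69.7 to 83.9). The downstream group was weaker and nearer to the table's lowest count. Locus 3 had 12 reads for eIF3a, 13 for eIF3b, 20 for eIF3d and 23 for eIF3g, with the same start and end in every list. Locus 4 had 18 reads for eIF3a, 8 for eIF3b and 10 for eIF3g and was not listed for eIF3d.

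MTPN also had 4 loci, all within one stretch of its 5′ UTR (chromosome 7, minus strand). Locus 1 spanned 135662064 to 135662090, locus 2 spanned 135662000 to 135662019, locus 3 spanned 135661944 to 135661993 and locus 4 spanned 135661911 to 135661933. The gaps between them were 45, 7 and 11 nt, so loci 2, 3 and 4 nearly abut. Locus 3 had the most even raw counts among the strong loci of the 6 genes. It had 116 reads for eIF3a, 109 for eIF3b, 103 for eIF3d and 128 for eIF3g. Its counting intervals overlapped between all subunits, from 84.1 at the lowest bound in eIF3d to 152 at the highest in eIF3g. Depth is unknown, so equal crosslinking in the 4 lists is not read from these unscaled counts.

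The neighbouring MTPN locus 2, 7 nt upstream, was uneven. It had 76 reads for eIF3a, 9 for eIF3b, 40 for eIF3d and 25 for eIF3g. As a share of MTPN reads that was 37.3% for eIF3a (95% exact binomial interval 30.6 to 44.3), 7.63% for eIF3b (3.55 to 14.0), 23.7% for eIF3d (17.5 to 30.8) and 13.7% for eIF3g (9.09 to 19.6). These shares do not depend on depth apart from the loci that were not listed. Their intervals cover counting error only, since sequenced reads are not independent molecules. Locus 4 had 12 reads for eIF3a, 26 for eIF3d and 16 for eIF3g and was not listed for eIF3b. Locus 1 was listed for eIF3g alone, with 13 reads.

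**Figure D2:**
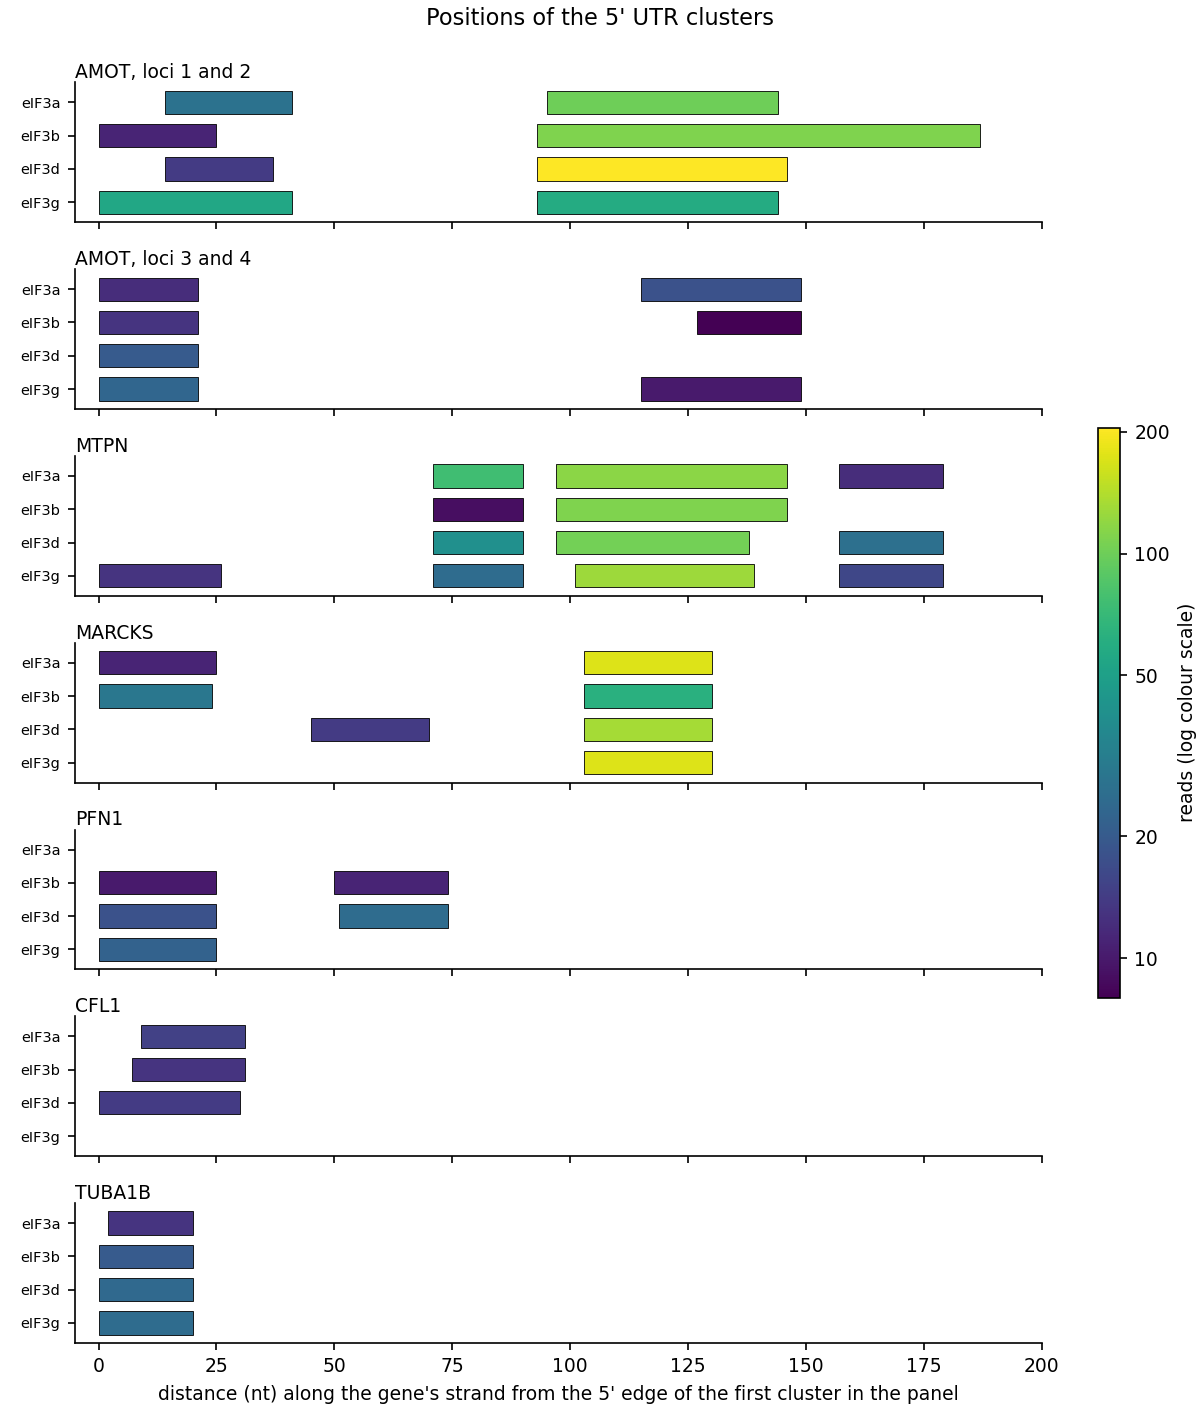
Position of each cluster along the gene's strand, as distance in nt from the 5′ edge of the first cluster in the panel, with 1 lane per subunit and colour for reads on a log scale. AMOT is drawn in 2 panels because its groups lie 24835 nt apart. The clusters of MTPN lie close together, and MARCKS locus 3 has the same edges in every lane.

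MARCKS, on the plus strand of chromosome 6, had 3 loci of which the last carried most reads in every list. Locus 3 ran from 114178670 to 114178697 in every list, with identical edges, and held 172 reads for eIF3a, 63 for eIF3b, 133 for eIF3d and 173 for eIF3g. As deposited, the eIF3b count was the lowest, and its counting interval of 48.4 to 80.6 lay below those of the other 3 lists. These counts are not scaled for depth, so no difference between subunits is read from them. Locus 1 (114178567 to 114178592) had 11 reads for eIF3a and 29 for eIF3b and was not listed for the other subunits. Locus 2 (114178612 to 114178637) was listed for eIF3d alone, with 14 reads. Locus 3 thus held 94.0% of MARCKS reads for eIF3a (95% exact binomial interval 89.5 to 97.0), 68.5% for eIF3b (58.0 to 77.8), 90.5% for eIF3d (84.5 to 94.7) and all 173 listed reads for eIF3g. The share in eIF3b was the lowest of the 4, and its interval did not reach the others. These intervals cover counting error only and no spread between libraries, so a difference between subunits was not tested. Where locus 1 or locus 2 was not listed, it may still have had reads below the table's lowest count. The share of locus 3 may be too high in those lists.

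**Figure D3:**
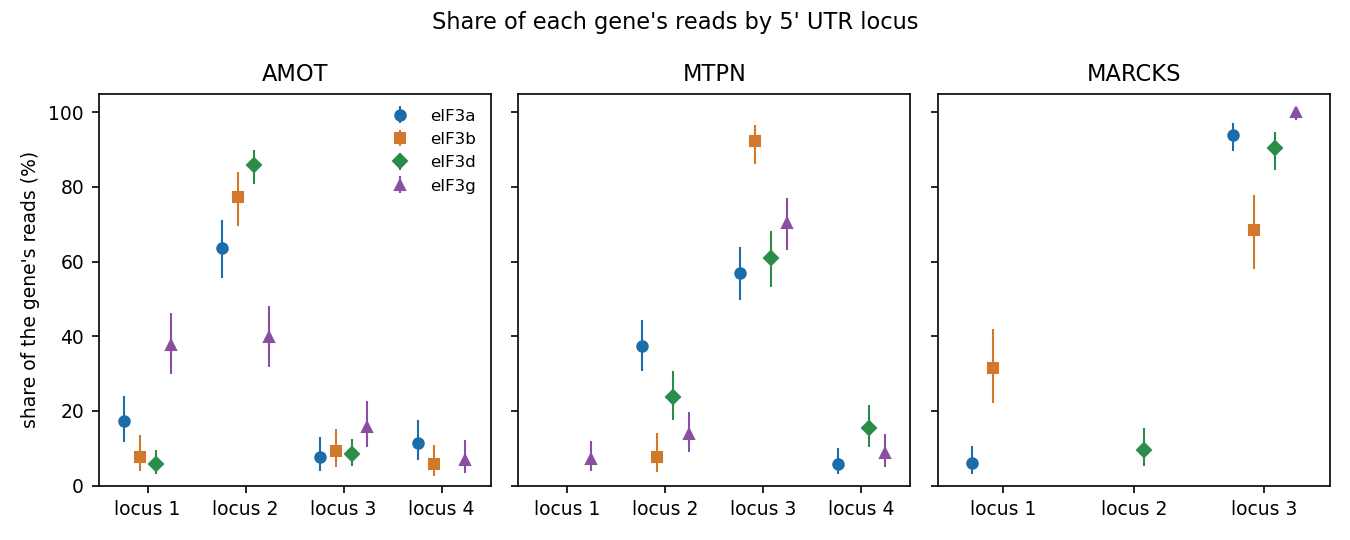
Share of the reads of AMOT, MTPN and MARCKS (vertical axis, percent) at each of their loci, for eIF3a, eIF3b, eIF3d and eIF3g. Bars are exact 95% binomial intervals that cover counting error only, and a missing point means not listed. AMOT reads for eIF3g are split between loci 1 and 2 (37.7% and 39.7%), MTPN locus 3 holds 92.4% for eIF3b, and MARCKS locus 3 holds 68.5% for eIF3b.

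PFN1, the monomer-binding protein that feeds actin growth, had 2 loci 25 nt apart (chromosome 17, minus strand). Locus 1 (4852047 to 4852072) had 10 reads for eIF3b, 18 for eIF3d and 22 for eIF3g. Locus 2 (4851998 to 4852022) had 11 reads for eIF3b and 25 for eIF3d. Locus 1 held 47.6% of the 21 reads for eIF3b (95% exact binomial interval 25.7 to 70.2) and 41.9% of the 43 for eIF3d (27.0 to 57.9). The PFN1 loci were thus near even in these lists. For eIF3g all 22 listed reads were at locus 1. Locus 2 may have had reads below the minimum of 8 there, so no balance is read from eIF3g. CFL1, which severs actin filaments, had 1 locus (chromosome 11, 65625583 to 65625614, minus strand) with 15 reads for eIF3a, 13 for eIF3b and 14 for eIF3d. These CFL1 counts, which are not scaled for depth, differ by less than counting error. TUBA1B had 1 locus (chromosome 12, 49525154 to 49525174, minus strand) with 13 reads for eIF3a, 20 for eIF3b, 24 for eIF3d and 25 for eIF3g. All 4 counting intervals of these unscaled counts overlapped. Alpha-tubulin genes have near-identical copies, and the labels do not say how reads that map to several places were treated.

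Several 5′ UTR loci in 1 gene were uncommon in the table. Of the 331 genes with a 5′ UTR cluster, 10.9% had 2 or more 5′ UTR loci and 2.11% had 3 or more, while among the 6 genes 4 had 2 or more and 3 had 3 or more. AMOT and MTPN, with 4 each, were the 2 genes of the table with that number, and no gene had more. The number of loci was among the values by which the genes were chosen, so no more is read from it. Within single lists, AMOT had 4 loci for eIF3a, 4 for eIF3b, 3 for eIF3d and 4 for eIF3g. MTPN had 3 for eIF3a, 2 for eIF3b, 3 for eIF3d and 4 for eIF3g. Neighbouring loci of the 6 genes formed 9 pairs with a median gap of 33 nt, and 8 of the gaps were under 100 nt. Over all genes, these 6 included, there were 45 such pairs with a median gap of 49 nt, 33 of them under 100 nt. When clusters up to 50 nt apart were joined, MTPN, MARCKS and PFN1 each became 1 locus, AMOT stayed at 4 and the 15 loci became 9.

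Cluster width was not part of how the genes were picked, although it follows from the same positions. The median width, as end minus start, was 25 nt over the 46 clusters and 24 nt over all 1001 5′ UTR clusters. Clusters wider than 40 nt were 8 of 46 (17.4%), against 44 of 1001 (4.40%), a count that includes those 8. All 8 belonged to AMOT, with 5, and MTPN, with 3. They were AMOT locus 1 for eIF3g, AMOT locus 2 in every list and MTPN locus 3 for eIF3a, eIF3b and eIF3d. The same loci are thus counted in several lists, and the 8 are not separate observations. AMOT locus 2 and MTPN locus 3 also held the most reads of their genes. The widest was AMOT locus 2 for eIF3b, at 94 nt. In eIF3a, eIF3d and eIF3g the same locus was between 49 and 53 nt wide. MARCKS clusters were between 24 and 27 nt wide and those of TUBA1B between 18 and 20 nt. Of the 13 loci listed for 2 or more subunits, 5 had the same start and end in every list (38.5%), near the 41.1% of the 438 such loci in the whole table.

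The place of a cluster within its own list is not moved by scaling that list. AMOT locus 2 was 19th of the 254 5′ UTR clusters of eIF3a by reads, 18th of 196 for eIF3b, 6th of 277 for eIF3d and 25th of 274 for eIF3g. MTPN locus 3 was 15th in eIF3a, 18th in eIF3b, 15th in eIF3d and 9th in eIF3g, so it kept nearly the same place throughout. MARCKS locus 3 was 6th in eIF3a, 26th in eIF3b, 10th in eIF3d and 7th in eIF3g. The remaining genes lay in the middle or lower part of the lists. The strongest PFN1 cluster was at percentile 15.3 for eIF3b, 57.2 for eIF3d and 59.7 for eIF3g. TUBA1B was at percentile 24.0 for eIF3a, 54.1 for eIF3b, 54.7 for eIF3d and 65.0 for eIF3g, and CFL1 at 34.3 for eIF3a, 27.8 for eIF3b and 26.7 for eIF3d. The 6 genes together made up 5.82% of the 5′ UTR reads for eIF3a (95% exact binomial interval 5.36 to 6.30), 4.82% for eIF3b (4.37 to 5.30), 5.29% for eIF3d (4.90 to 5.71) and 4.30% for eIF3g (3.95 to 4.66).

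Reads at single loci were next set between subunits, as log2((reads + 1) of one over (reads + 1) of the other), with each ratio's percentile among all loci that both lists hold. The pseudocount is added before any scaling, so a scaling of a list shifts every ratio of a pair alike and by construction leaves the percentile in place. The largest departures were at AMOT and MTPN. They were picked for being extreme among all ratios at the loci of the chosen genes, and several ratios share a count. Some percentiles near either end can be found in any such set of ratios, so these loci are not read as exceptional. At AMOT locus 2 eIF3g had 58 reads and eIF3d 205, a log2 ratio of -1.80 at percentile 3.92 of 293 loci. At AMOT locus 1 the same pair had 55 reads for eIF3g and 14 for eIF3d, a log2 ratio of 1.90 at percentile 92.7. The ratio of the same subunits thus went opposite ways at loci 52 nt apart in the same gene. At locus 1 the clusters differed in extent, at 41 nt for eIF3g and 23 nt for eIF3d, so that ratio compares unequal stretches.

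At MTPN locus 2 eIF3b had 9 reads and eIF3a 76, a log2 ratio of -2.94 at percentile 1.09 of 229 loci. At MTPN locus 3 the log2 ratio of the same pair was -0.09, from 109 reads for eIF3b and 116 for eIF3a, at percentile 57.0. MARCKS showed a similar split between its loci: eIF3b over eIF3a was -1.43 on the log2 scale at locus 3 (63 and 172 reads, percentile 10.3) and 1.32 at locus 1 (29 and 11 reads, percentile 90.8). With counts of 9 and 11 among them, the weaker sides of these ratios are known poorly. TUBA1B had log2 ratios over eIF3a of 0.58 for eIF3b, 0.84 for eIF3d and 0.89 for eIF3g, each at percentile 76.6 of its pair, from counts whose intervals overlap. CFL1 ratios ran from -0.19 for eIF3b over eIF3a to 0.10 for eIF3d over eIF3b.

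Across the loci of the 6 genes, the median log2 ratio over eIF3a was -0.14 for eIF3b over 10 loci, -0.09 for eIF3d over 9 and 0.14 for eIF3g over 9. The medians over all loci of each pair were -0.26, 0.14 and 0.00. Over eIF3b, the medians were 0.69 for eIF3d over 10 loci and 0.78 for eIF3g over 9, beside 0.35 and 0.21 for all loci, and eIF3g over eIF3d was 0.19 beside -0.03. These pairs share lists, and the signs of several medians changed with the scaling.

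T-to-C conversions were far lower in the eIF3d list than in the other 3, where they were near 1 per read. Summed over the 6 genes, conversions per read were 0.988 for eIF3a (565 in 572 reads), 1.16 for eIF3b (468 in 405), 0.123 for eIF3d (78 in 636) and 1.12 for eIF3g (613 in 548). Medians over the clusters of the 6 genes were 1.05 for eIF3a, 1.1 for eIF3b, 0.211 for eIF3d and 1.00 for eIF3g. The medians of all 5′ UTR clusters were 1.00 for eIF3a, 1.06 for eIF3b, 0.20 for eIF3d and 1.03 for eIF3g, near those of the 6 genes. The summed values are weighted by reads and are not a like measure to these medians. At all 7 loci of the 6 genes that were listed for all 4 subunits eIF3d had the fewest conversions per read, as did 97.7% of the 173 such loci in the table, and what the eIF3d column counts is not stated. In eIF3d, AMOT locus 2 had 8 conversions in 205 reads (0.0390), MTPN locus 2 had 2 in 40 (0.050), MTPN locus 3 had 12 in 103 (0.117) and MARCKS locus 3 had 12 in 133 (0.0902). The weaker TUBA1B cluster had 7 conversions in 24 reads (0.292) and CFL1 6 in 14 (0.429).

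**Figure D4:**
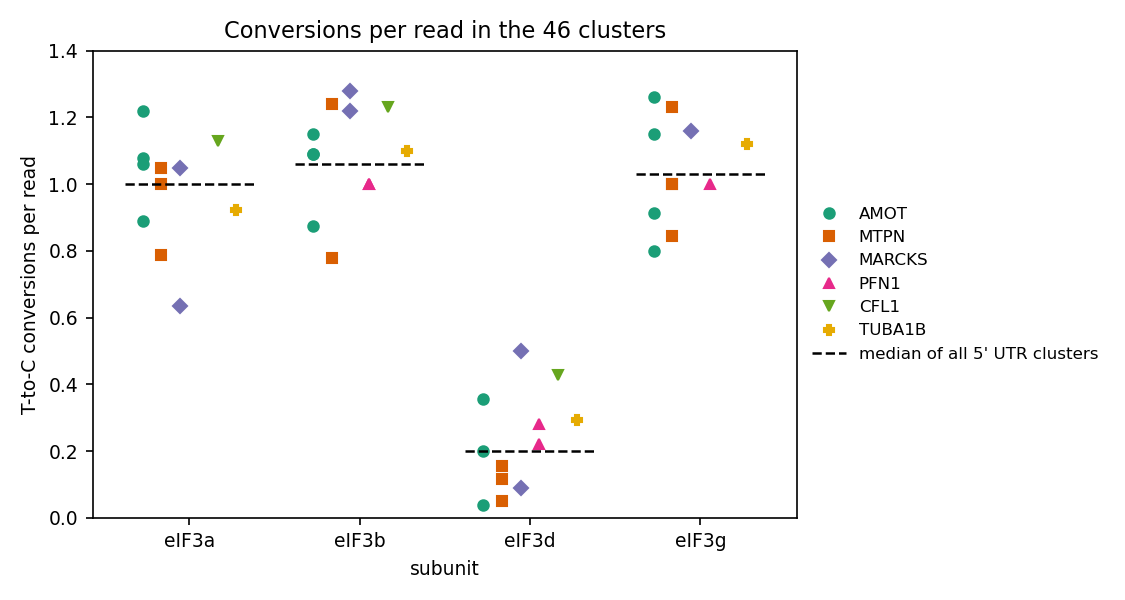
T-to-C conversions per read in the 46 clusters of the 6 genes, by subunit, with the median of all 5′ UTR clusters of the subunit as a dashed line. Clusters in eIF3d lie between 0.0390 and 0.50, below every cluster of the other 3 lists, where the lowest is MARCKS locus 1 for eIF3a at 0.636.

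Loci of the same gene also differed in conversions per read. Between the MTPN loci with most reads, locus 2 was lower than locus 3 in every list, with 0.789 against 1.05 for eIF3a, 0.778 against 1.24 for eIF3b, 0.050 against 0.117 for eIF3d and 1.00 against 1.23 for eIF3g. For eIF3g, MTPN locus 1 was lower still (0.846) and locus 4 equal to locus 2. The AMOT loci kept no common order. Locus 2 had 0.890 for eIF3a, 1.09 for eIF3b, 0.0390 for eIF3d and 0.914 for eIF3g. Locus 1 had 1.22 for eIF3a, 1.09 for eIF3b, 0.357 for eIF3d and 1.15 for eIF3g. Locus 3 was above locus 2 in each list, at 1.08 for eIF3a, 1.15 for eIF3b, 0.20 for eIF3d and 1.26 for eIF3g, whereas locus 4 was above it for eIF3a (1.06) and below it for eIF3b (0.875) and eIF3g (0.80). MARCKS locus 1 had 0.636 for eIF3a, from 7 conversions over 11 reads, and 1.28 for eIF3b, from 37 over 29, so its order against locus 3, at 1.05 and 1.22, was not the same in the 2 lists. The number of uridines in each locus was not used here, nor was sequence of the hg19 build.

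A list of 219 cytoskeletal genes in 13 groups was read for other members of the same pathways. A cluster of any annotation was found in 16 of them, 6 of which are the genes described above and were chosen because they are in the table. Without these, 10 of 213 had a cluster (4.69%), beside 2.21% of the 20052 protein-coding genes in RefSeq. That last share also covers genes that may be silent in these cells. The list was drawn up with earlier results known, so the shares are a description. A share of all protein-coding genes with a 5′ UTR cluster is not given here. Among the 10 others, 5 had a 5′ UTR cluster. RHOA, the small GTPase that drives stress fibre assembly, was the strongest of these, with 2 loci on chromosome 3, minus strand. Its upstream locus (49449371 to 49449408) had 11 reads for eIF3a, 29 for eIF3b, 25 for eIF3d and 47 for eIF3g. Its downstream locus (49449289 to 49449322) had 34 for eIF3a, 9 for eIF3b, 50 for eIF3d and 26 for eIF3g. The balance between the RHOA loci thus changed between lists, as it did in AMOT and MTPN. NF2, which encodes merlin, an angiomotin-binding protein of the Hippo pathway, had 15 reads for eIF3a, 9 for eIF3b, 15 for eIF3d and 29 for eIF3g.

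Some relatives of the 6 genes were also listed. MARCKSL1, the other member of the MARCKS family, had a 5′ UTR cluster with 19 reads for eIF3b and 23 for eIF3d. AMOTL1, an angiomotin relative, was listed in its coding sequence, with 15 reads for eIF3a, 12 for eIF3b and 39 for eIF3d. CAP1, which works with cofilin in actin turnover, had a single 5′ UTR cluster of 18 reads for eIF3d, and TPX2, a spindle assembly factor, had 14 reads for eIF3b and 8 for eIF3g in its 5′ UTR. Of 4 profilins and 3 cofilin family genes, PFN1 and CFL1 were the ones listed, and TUBA1B was the 1 of 21 tubulins. None of the 6 actin genes and none of the 32 genes of filament nucleation and branching was listed. Over all protein-coding genes 2.21% had a cluster, so few or no listed genes in groups of this size is not read as a result. Genes not listed may also have had reads below the minimum of 8.

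The genes whose reads over the 4 lists were most like those of each member were found by Euclidean distance on log2(reads + 1), with a gene that is not listed counted as 0. PPP3R1, the regulatory subunit of calcineurin, was nearest to AMOT (distance 0.40), to MTPN (0.61) and to MARCKS (0.91), with 195 reads for eIF3a, 148 for eIF3b, 206 for eIF3d and 135 for eIF3g. The next were MORF4L2 for AMOT (0.50), PTGES3 for MTPN (1.02) and U2AF2 for MARCKS (0.98). For PFN1 they were HIST1H2BN (0.97) and SERP1 (1.24), both also not listed for eIF3a. For CFL1 they were POLR3G (0.43) and ZNF254 (0.46), both not listed for eIF3g, and for TUBA1B they were COA1 (0.33) and PPP1R11 (0.49). Each distance rests on 4 values per gene and is a description with no test.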

How the data were processed

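Crosslinked RNA of 12 libraries from 293T cells was compared in 4 groups of 3, eIF3a, eIF3b, eIF3d and eIF3g, assigned from the sample titles. Per the file headers, the authors deposited raw read counts and T-to-C conversion counts for each cluster and subunit. Per the submitters' processing notes, cutadapt, Bowtie and bedtools were used with hg19 and no version is stated. How clusters were called and how replicates were pooled is not given in the sources used.

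Names that differed only in case were joined. Clusters overlapping by at least 1 nt on a strand were joined into loci, a step tested on simulated data. Symbols of 451 of 479 genes, and of all 6 members, matched the RefSeq table of GRCh38.p14, 43 through an older symbol, and none of its coordinates was used. Ratios used a pseudocount of 1, added before any scaling. Intervals are exact at 95%. Python 3.11.15, pandas 2.3.3, numpy 2.4.6, scipy 1.17.1 and matplotlib 3.10.9 were used.

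The members, the gene lists and all summaries were chosen with earlier results of these data known, so no test was run. The genes named are the 6 members, every list gene with a cluster, and the 2 genes nearest to each member. Alternatives changed the overlap, region, scaling, pseudocount, background and minimum reads. Sequence of the loci was not used here.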

Additional observations from a re-analysis of the deposited data

How the results depend on the processing

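No paired analysis was possible because no column of the table tells replicates apart, and for the same reason no replicate could be left out. The 4 genes listed for every subunit became 3 when only clusters reaching the median of their list counted, and were 4 with 5′ UTR clusters alone and, in a check added after seeing the data, without the eIF3d list. Joining clusters up to 50 nt apart left 9 of 15 loci, since neighbours then merge by construction. Counting the strongest cluster of each gene and list gave 1651 reads in place of 2161. The median percentile of the strongest clusters was 88.9 among 5′ UTR clusters and 77.5 among loci of all 4 subunits. Per 1000 reads in clusters, the median log2 ratios became -0.48 for eIF3b over eIF3a, -0.77 for eIF3d over eIF3a, -1.90 for eIF3g over eIF3a, 0.35 for eIF3d over eIF3b, -0.92 for eIF3g over eIF3b and -1.18 for eIF3g over eIF3d. Per 1000 reads in mRNA exon clusters without EIF3A they were 0.23 for eIF3b over eIF3a, -0.31 for eIF3d over eIF3a, -0.14 for eIF3g over eIF3a, 0.10 for eIF3d over eIF3b and 0.13 for eIF3g over eIF3b. Only a constant per pair separates these scalings, so no order of the subunits is read from them. By construction they leave each single-locus percentile in place, so they are no check of it. With the pseudocount of 0.1, no such percentile moved by over 3.04 points. Of the 12 nearest genes, 11 stayed with scaled reads. List genes with a cluster were 16, with 11 in 5′ UTRs and 12 with clusters reaching that median. Unknown depth and counts near the minimum of 8 reads limit every value for PFN1, CFL1 and TUBA1B.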

Other observations

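Cytoskeletal genes of the list with clusters outside 5′ UTRs varied in their conversions, some within and some outside the range of the 6 genes. LIMCH1, an actomyosin regulator, had 1 intronic cluster on chromosome 4 (41602099 to 41602120, plus strand) with 677 reads in eIF3a and 587 in eIF3b, more reads in either list than any cluster of the 6 genes, of which the strongest had 205. It carried 0.526 conversions per read in eIF3a and 0.504 in eIF3b and was not listed for eIF3d or eIF3g. ADD2, a subunit of the spectrin-binding protein adducin, had 28 conversions in 14 reads in both eIF3a and eIF3g at an intronic cluster on chromosome 2 (70844343 to 70844362, minus strand), which is 2 per read, and 2 conversions in 11 reads in eIF3d. ANK3, a membrane linker to spectrin, had an intronic cluster with 70 reads in eIF3b, 13 in eIF3d and 22 in eIF3g, with 1.57, 0.0769 and 1.82 conversions per read. KRT10, a keratin, had 3′ UTR clusters with 13 reads in eIF3a (1.46 conversions per read) at one place and 39 in eIF3b (1.05) and 10 in eIF3d (0.30) at another. AMOTL1, listed in its coding sequence, had 1.07 conversions per read in eIF3a, 1.08 in eIF3b and 0.154 in eIF3d. None of the 46 clusters of the 6 genes had more than 1.28 conversions per read.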
